A study of Mus musculus with 26 samples.

Results

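Vascular leptomeningeal cells of mouse brain at postnatal day 7 (P7) were chosen by measured values. A well of a microfluidic chip was taken as a member where it held at least 1000 molecules of messenger RNA, at least 5 of them summed over Col1a1, Col1a2, Col3a1, Lum, Dcn and Slc6a13, and under 3 summed over the oligodendrocyte precursor genes Olig1, Olig2, Sox10, Lhfpl3, C1ql1 and Neu4. The rule took 66 of the 709 wells with 1000 or more molecules on the 11 P7 brain chips. The whole series held 1514 such wells on 26 chips. Levels of the 12 genes of the rule, and every contrast of members with precursor wells, are therefore given as description with no test.

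The study sorted green fluorescent (GFP) cells of brain and spinal cord at embryonic day 13.5 (E13.5) and P7 and sequenced the 5′ ends of their transcripts in single wells. P7 brain came from 3 groups. The H2B-GFP group (2 chips) carried histone H2B fused to eGFP in 1 copy of the Pdgfra locus on a C57BL/6NJ background. The 2 traced groups carried a tamoxifen-dependent Cre under Pdgfra control (Pdgfra-cre-ERT) with the RCE reporter, which turns on GFP for good once Cre has acted, on a mixed C57BL/6NJ and CD1 background. Tamoxifen was given at E12.5, through the pregnant female (txE12.5, 6 chips), or at P3 (txP3, 3 chips), and brains were taken at P7 by the labels, or at P7 to P8 by the methods of the study. E13.5 brain (6 chips) and P7 spinal cord (5 chips) came from the H2B-GFP line. Embryonic tissue was dissociated mechanically and postnatal tissue with papain, and both sexes were used. The sort relied on Pdgfra in every group, so leptomeningeal cells without Pdgfra at the labelling time were outside the gate.

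The leptomeninges are the thin inner coverings of the brain, the pia and the arachnoid. Their fibroblast-like cells, which also follow large vessels into the tissue, lay down collagen and basement membrane, carry solutes between cerebrospinal fluid and blood, and secrete signals such as retinoic acid and the chemokine Cxcl12 that act on the developing cortex. These cells are known to express Pdgfra, as oligodendrocyte precursors do, which is why both can enter a sort on that gene.

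Members stood well inside the threshold for the most part. Their summed molecules of the 6 leptomeningeal genes ran from 7 through a median of 34.5 to 354, and 53 of 66 held at least 20. Just inside the threshold were 4 members with 5 to 9 molecules, and just outside were 2 wells with 3 or 4. On the other axis, 26 members held 0 molecules of the precursor genes, 23 held 1 and 17 held 2, whereas 20 wells with enough leptomeningeal molecules were left out with a precursor sum of 3 to 5. A further 38 such wells had a precursor sum of 6 or more. The scatter of both sums has the members at the upper left, the 548 precursor wells at the lower right and the 58 wells that held both sets between them. Both axes are sums that the rule cut on, so this separation is set by the rule and supports nothing else.

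**Figure D1:**
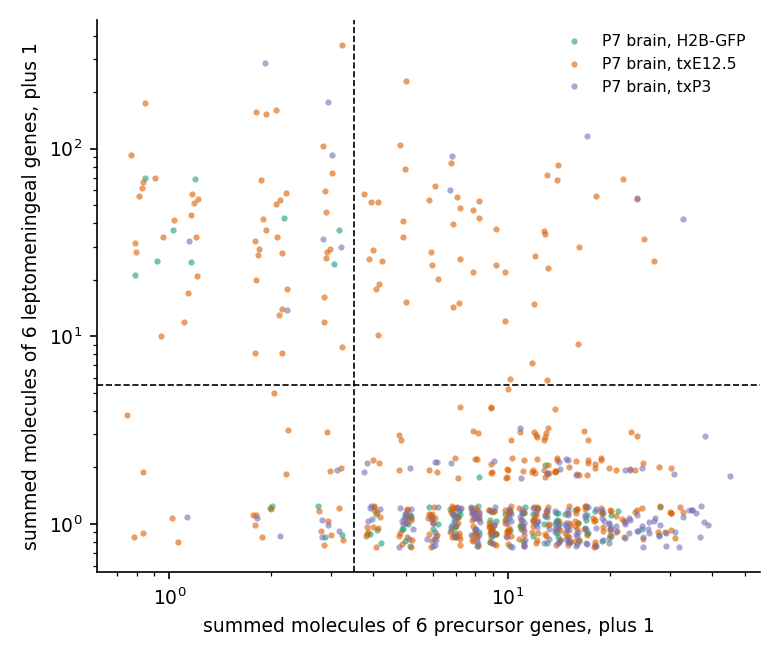
Summed molecules of 6 leptomeningeal and 6 precursor genes in each P7 brain well with at least 1000 molecules, coloured by group. Dashed lines mark the thresholds of the rule, and members lie at the upper left.

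Members held 1189 to 8037 molecules each (median 2954) and 613 to 2811 genes (median 1340). Precursor wells of the same chips had a median of 2826.5 molecules and 1475.5 genes, so the 2 kinds of well were of like depth. Wells with both gene sets had a median of 3791 molecules. Mitochondrial transcripts made up 7.36% of all molecules in members and 6.19% in precursor wells. No 2 wells had identical counts, and no column name was shared between chips.

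The members fell unevenly on the chips. All 11 P7 brain chips held at least 1. The txE12.5 chips held 50 members of 404 wells, at shares of 1.59%, 14.1%, 10.3%, 14.1%, 9.72% and 25.4% on chips 5, 13, 14, 15, 16 and 17. The txP3 chips held 7 of 197, at 2.86%, 1.75% and 5.71% on chips 18, 19 and 20. The H2B-GFP chips held 9 of 108, at 6.78% and 10.2% on chips 21 and 22. Every txE12.5 chip but chip 5 lay above every txP3 chip, and chip 5 lay below all of them. With 49 to 78 wells a chip, the smallest share that 3 wells give ranged from 3.85% to 6.12%, so the shares of 3 chips (5, 18 and 19) rest on 1 or 2 wells.

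Mean shares were 12.53% (SD 7.79) after labelling at E12.5 and 3.44% (SD 2.04) after labelling at P3, a difference of 9.09 percentage points (exact permutation p = 0.107, adjusted p = 0.321 over 3 comparisons, 6 and 3 chips). The difference did not pass the test. When wells with both gene sets were counted in, it was 19.5 points and passed (exact permutation p = 0.0119, adjusted p = 0.0357), with shares of 25.4% (SD 9.2) and 5.93% (SD 2.54). The passing result rests on those added wells, and the study set aside wells with precursor and leptomeningeal genes together as doublets; whether these wells hold 2 cells was not tested. The txE12.5 and txP3 chips came from different experiments, so labelling time and experiment cannot be told apart. The 6 txE12.5 chips came from 2 experiments, the 3 txP3 chips from 1 and the 2 H2B-GFP chips from 1, and chips of 1 experiment may share animals or a cell suspension, so the tests may count them as more independent than they are. The 9 traced chips averaged 9.5% (SD 7.72) and the 2 H2B-GFP chips 8.49% (SD 2.42), a difference of 1.01 points (exact permutation p = 0.909, adjusted p = 1). The plot of shares by chip shows that the txE12.5 chips alone spanned the range of all P7 brain chips.

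**Figure D2:**
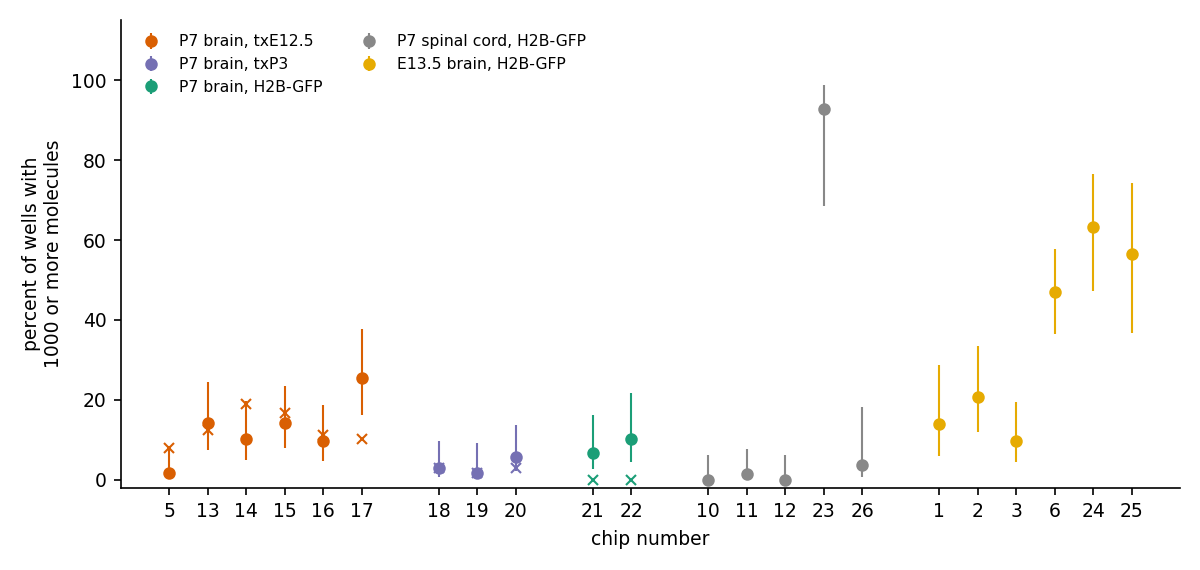
Percent of wells that passed the rule on each chip, with 95% binomial intervals. Crosses give the percent of wells with both gene sets on the P7 brain chips.

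In spinal cord of the same line and age, the rule took 0 of 57, 1 of 70, 0 of 57, 13 of 14 and 1 of 27 wells on chips 10, 11, 12, 23 and 26. Chip 23 stood apart from the other 4, and came from another experiment. The shares of P7 brain (H2B-GFP, 2 chips) and P7 spinal cord (5 chips) differed by −11.1 points (exact permutation p = 1, adjusted p = 1). Without chip 23 the difference turned to 7.21 points, with shares of 8.49% in brain and 1.28% (SD 1.75) in spinal cord (exact permutation p = 0.0667, the smallest that 15 arrangements allow). Region and experiment cannot be told apart here either.

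Levels below are counts per 1000000 molecules (CPM), summed over the members of a chip, for the 6 chips with at least 5 members (54 wells; 5 txE12.5 chips and H2B-GFP chip 22). Since 1 molecule stands for 1 transcript read at its 5′ end, CPM does not depend on transcript length. How well each gene was captured was not measured, so ranks between genes are ranks of molecules counted. The 6 genes that chose the members were led by Col1a2, a chain of type I collagen, at 4489.3 CPM (SD 2103.7). Dcn, the proteoglycan decorin, followed at 3653.0 (SD 884.2) and Col3a1, of type III collagen, at 2713.3 (SD 1183.8). Col1a1, the other type I chain, stood at 2029.9 (SD 1264.7), Slc6a13, a carrier of GABA and taurine, at 1640.9 (SD 651.9) and Lum, lumican, at 746.8 (SD 307.7). These 6 describe the choice and support nothing else.

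In all, 11448 genes had a molecule in any member and 462 in at least 50% of members. The most abundant outside the rule was the nuclear RNA Malat1, at 73661.9 CPM against 79967.7 in precursor wells. Next came secreted proteins: Ptgds, the prostaglandin D synthase of cerebrospinal fluid, at 13449.2 CPM (SD 14608.4), Ptn, the heparin-binding growth factor pleiotrophin, at 10370.2 (SD 3835.3), Igf2, insulin-like growth factor 2, at 7695.0 (SD 2351.7), and Vtn, the adhesion protein vitronectin, at 6826.9 (SD 2675.4). The growth factor binding protein Igfbp2 stood at 4099.1 CPM, and the matrix proteins Sparc and Sparcl1 at 3941.7 and 3728.7. Also among the 15 highest were the ribosomal protein genes Rps29, Rpl35 and Rplp1, the actin-binding Tmsb10 and the histone variant H3f3b, all between 2705.0 and 4282.0 CPM. Together the 15 genes made up 14.8% of the members' molecules.

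Of the 4 secreted proteins, 3 were found in nearly all members, and Ptgds was not. Igf2 was found in 64 of 66 members, Ptn in 65 and Vtn in 62. Ptgds was found in 23, and 3 wells held 72.3% of its 3483 molecules.

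Against precursor wells of the same chips, the ratio of mean CPM (20 CPM added to each) was highest for Vtn, at 103.7. Vtn ran from 4897.4 through 6213.2 to 12098.4 CPM (lowest, median and highest of 6 chips) in members, against a mean of 46.0 in precursor wells, where 38 of 548 held a molecule. Pltp, a phospholipid transfer protein, had a ratio of 48.7 and Ppic, a cyclophilin, 43.5. The transcription factor Tbx18, found in mural and mesothelial cells, had 43.3, with 886.0 CPM (SD 369.4) in members and 0.912 in precursor wells. Cxcl12, the chemokine that guides Cajal-Retzius cells and interneurons, had 42.7, and Igf2 42.5. The other 9 of the 15 highest ratios, from 41.9 to 33.7, were Islr (a marker of stromal cells), Serpinf1 (pigment epithelium-derived factor), Itih5 (a hyaluronan-binding protein), Apod (apolipoprotein D), Igfbp2, Nupr1 (a stress-induced chromatin protein), Pcolce (an enhancer of procollagen cleavage), Edn3 (endothelin 3) and Col6a1 (type VI collagen). The rule rests on this same contrast, so the ratios are description. In wells thinned to 1000 molecules each, Vtn was still seen in 92.4% of members and 2.37% of precursor wells, and Tbx18 in 42.4% and 0.365%.

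**Figure D3:**
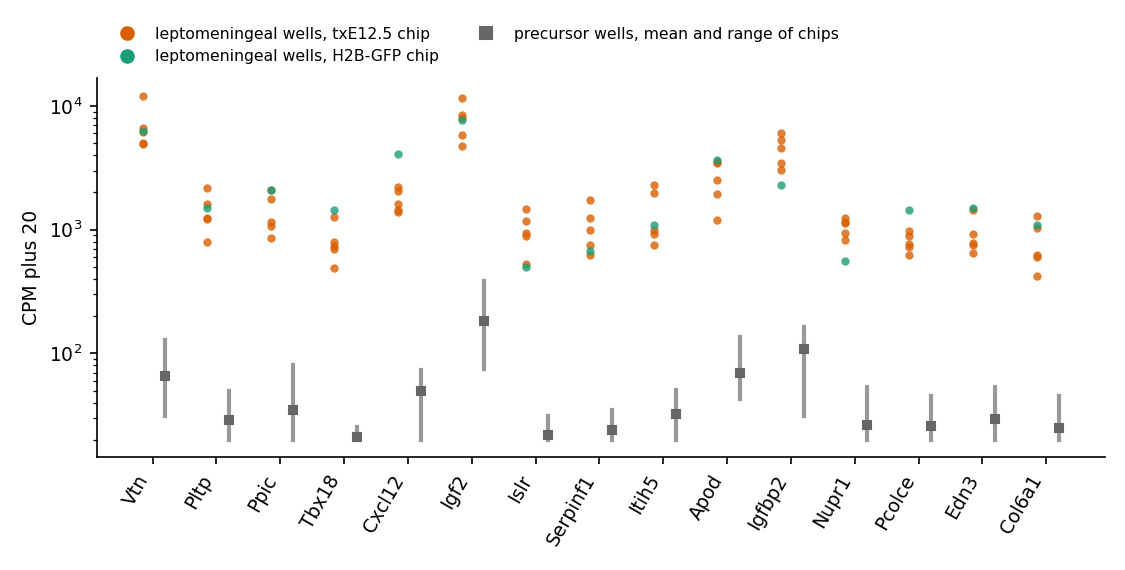
CPM of the 15 genes with the highest ratio to precursor wells, in members of 6 chips and in precursor wells of the same chips (mean and range). The 15 genes were chosen for this contrast, so the lack of overlap between members and precursor wells is description.

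RefSeq promoters (GRCm38.p6, 250 bases before to 50 after the start site) were matched for 14 of these 15 genes. The 4 promoters shown are of genes that stand for the transport, adhesion, signalling and transcription factor roles of the members. Slc13a4, a sulfate carrier described below, is not among the 15. The 4 are those of Slc13a4 (chr6:35308077-35308376, minus strand), Vtn (chr11:78498870-78499169, plus strand), Cxcl12 (chr6:117168285-117168584, plus strand) and Tbx18 (chr9:87731211-87731510, minus strand). Each is written 5′ to 3′ on the strand of its gene, and capitals mark every match on either strand to TATAAA, known as the TATA box, to CCAAT or to GGGCGG, known as the GC box.
Slc13a4: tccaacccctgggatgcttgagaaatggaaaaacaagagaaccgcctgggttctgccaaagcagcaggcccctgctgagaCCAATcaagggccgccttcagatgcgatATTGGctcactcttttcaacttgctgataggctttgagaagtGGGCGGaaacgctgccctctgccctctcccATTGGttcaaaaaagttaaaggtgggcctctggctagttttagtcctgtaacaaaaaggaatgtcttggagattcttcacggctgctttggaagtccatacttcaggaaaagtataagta
Vtn: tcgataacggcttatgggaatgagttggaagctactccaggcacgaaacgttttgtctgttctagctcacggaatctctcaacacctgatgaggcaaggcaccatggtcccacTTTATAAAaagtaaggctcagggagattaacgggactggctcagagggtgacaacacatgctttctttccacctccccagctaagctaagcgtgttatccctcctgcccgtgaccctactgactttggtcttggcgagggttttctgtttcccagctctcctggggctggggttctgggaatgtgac
Cxcl12: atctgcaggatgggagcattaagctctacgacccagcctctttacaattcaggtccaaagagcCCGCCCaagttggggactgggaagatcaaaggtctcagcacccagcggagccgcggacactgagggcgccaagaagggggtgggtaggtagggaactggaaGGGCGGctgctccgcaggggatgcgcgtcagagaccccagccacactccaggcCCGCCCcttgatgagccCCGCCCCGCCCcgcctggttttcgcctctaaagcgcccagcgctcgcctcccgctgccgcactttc
Tbx18: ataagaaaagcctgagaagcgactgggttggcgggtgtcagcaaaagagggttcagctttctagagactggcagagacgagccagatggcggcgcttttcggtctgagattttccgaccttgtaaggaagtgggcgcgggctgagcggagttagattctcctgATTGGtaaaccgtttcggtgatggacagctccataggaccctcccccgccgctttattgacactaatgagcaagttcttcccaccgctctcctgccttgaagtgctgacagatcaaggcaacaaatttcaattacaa
No motif was found in all 4. Slc13a4 held 3 CCAAT matches and 1 GC box, Vtn an overlapping pair of TATAAA matches on the 2 strands, Cxcl12 5 GC boxes and Tbx18 1 CCAAT. Among all 32851 RefSeq promoters of the same length, 13.6% held TATAAA, 37.4% CCAAT and 35.7% GGGCGG. Among the 18 promoters of the 14 genes it was 11.1%, 22.2% and 44.4%. The promoter of Ptgds held none of the 3 motifs. A match is a description of the sequence, not a site shown to be used.

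Matrix genes were widely seen. All 25 collagen genes of a list had a molecule in members, with a summed level of 16242.8 CPM (SD 6439.2) against 725.9 (SD 127.3) in precursor wells. Outside the genes of the rule, basement membrane collagen led, with Col4a1 at 2033.3 CPM (SD 1009.8) and Col4a2 at 749.1 (SD 262.6). Col6a1 stood at 824.4 CPM, the network-forming Col4a5 and Col4a6 at 431.6 and 345.3, Col5a2 at 422.5 and Col18a1, the source of endostatin, at 370.1. Cartilage-type Col11a1 was at 135.3 CPM, and Col15a1 at 142.5. Of 32 matrix glycoproteins and proteoglycans, all were seen, summing to 18681.4 CPM (SD 3564.2) against 1412.9. Both sums include genes that chose the wells. Basement membrane linkers Nid1 and Nid2 stood at 710.9 and 561.9 CPM, the laminin chains Lamb1, Lamc1, Lama2 and Lama1 at 462.1, 416.0, 268.6 and 261.9, and biglycan (Bgn) at 755.7. Fibronectin (Fn1) was found in only 12 members. The collagen chaperone Serpinh1 reached 2436.2 CPM (SD 743.4), 62.3 in precursor wells. It led a list of 17 genes of collagen processing, of which 16 were seen, at a sum of 6133.4 CPM (SD 864.0) against 1816.6, a sum that includes Serpinh1.

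Solute carriers and channels were seen as widely. Of 27 transporter genes 26 were seen, with a sum of 12218.8 CPM (SD 1587.1) against 2259.4 in precursor wells. That sum includes Slc6a13, a gene that chose the wells. The cystine and glutamate exchanger Slc7a11 stood at 1216.6 CPM (SD 567.4), in 52 members, and the glutamate carrier Slc1a3 at 1254.5 (SD 568.7). The organic anion transporter Slc22a6, which clears drugs and metabolites, stood at 475.2 CPM (SD 101.3), in 47 members. The imino acid carrier Slc6a20a was at 437.4 CPM, the sulfate carrier Slc13a4 at 473.3 (SD 385.0) and the dicarboxylate carrier Slc13a3 at 238.3 (SD 174.4). Genes of gap junctions were present: Gja1 (connexin 43) at 1273.2 CPM, Gjb6 (connexin 30) at 743.7 and Gjb2 (connexin 26) at 362.4, against 35.0, 4.22 and 5.01 in precursor wells. Cdh1, Cldn1 and Dsp, genes of epithelial junctions, were at 0 molecules in all members.

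Transcription factors known from meningeal development were present at low levels. Of 33 listed, 27 were seen, summing to 4219.7 CPM (SD 1066.6) against 379.0 in precursor wells. Tbx18 led, then the Krüppel-like factor Klf4 at 720.5 CPM (SD 748.6), Nr2f1 at 493.1 and Zic1 at 432.6 (SD 93.4). Foxc1, whose loss disrupts the meninges, stood at 168.5 CPM (SD 93.3) in 21 members, Foxd1 at 84.9 in 16, and Zic4 at 151.2 in 20. Six2, Tcf21, Meox2, Ebf1, Ebf2 and Msx2 were at 0. At these levels 3 molecules on a chip equal 81.2 to 144.9 CPM on the txE12.5 chips, so a factor that is absent from a well may still be expressed there.

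Of 13 retinoid genes 9 were seen, summing to 1649.2 CPM (SD 480.6) against 50.6 in precursor wells. In E13.5 brain wells chosen by the same rule, described below, the sum was 1144.8 CPM. Aldh1a2, which makes retinoic acid and is known from the meninges, was found in 32 members at 304.3 CPM (SD 115.6), and Aldh1a1 in 24 at 261.8 (SD 214.2). Aldh1a3, Rbp4, Crabp1 and Cyp26b1 were at 0. In precursor wells Aldh1a2 and Aldh1a1 stood at 6.54 and 2.3 CPM. Among growth factor receptors, Pdgfra, the gene of the sort, stood at 596.6 CPM (SD 241.1) in 48 members, below the 1839.7 of precursor wells. Its relative Pdgfrb stood at 181.5 CPM in members and 6.45 in precursor wells.

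Markers of the layers of the meninges did not single out 1 layer. The pial marker S100a6 was found in 42 members at 932.0 CPM (SD 763.3), Lama1 in 33 and Ngfr in 4. Of the arachnoid markers, Ptgds was in 23 members, Crabp2 in 16, Aldh1a2 in 32, Angptl2 in 8 and Wnt6 in 3. Of the arachnoid barrier markers, Cdh1 and Klf5 were at 0, Dpp4 was in 3 members and Slc47a1 in 2, while Cldn11, also a myelin gene, was in 23. Dural markers were rare: Foxc2 in 4 members, Fxyd5 in 6, Mgp in 8, and Dkk2 and Smoc2 in 1 and 2.

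The label was checked against markers of other cells. All 9 microglia and macrophage markers, among them Cx3cr1, C1qa and Csf1r, were at 0 molecules. The 3 measured red cell genes were at 0 as well. Of 7 neuron markers 2 were seen (Dcx in 6 members, Snap25 in 3), at a sum of 63.8 CPM (SD 60.6). Of 7 astrocyte markers 3 were seen at a sum of 773.6 CPM, of which 743.7 came from Gjb6, which leptomeningeal cells are known to share; the defining Aqp4, Aldoc, Gfap and Aldh1l1 were at 0. Of 8 endothelial markers 6 were seen at a sum of 2435.5 CPM, of which 2265.2 came from Itm2a, while Pecam1 and Ly6c1 were at 0. The defining Cdh5 was seen in 18 members on 8 of the 11 chips, at 106.6 CPM, and Flt1, Cldn5 and Kdr in 2, 1 and 1 members. Pericyte and smooth muscle markers summed to 7088.6 CPM, of which 6826.9 came from Vtn. Without Vtn little of that list was left: Rgs5, the defining pericyte gene, was found in 1 member, on chip 14, with 23 molecules, and Acta2, Myh11 and Notch3 were at 0. The choroid plexus genes Ttr and Folr1 were at 0. Oligodendrocyte precursor markers summed to 1018.6 CPM (SD 475.0) against 11204.8 in precursor wells; the rule itself limits 6 of the 12. Of 10 myelin genes 8 were seen, with a molecule in 54 members and a sum of 1192.9 CPM (SD 659.1) against 4737.4 in precursor wells; Trf, the iron carrier transferrin, led at 370.1, and Mog and Opalin were at 0. The part of these other markers in the results was not tested. A single member held 22 molecules of Gpr17, a gene of committed precursors.

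Ptgds divided the members. Of 66 members, 15 held at least 10 molecules and 43 held 0; the 3 highest held 1090, 870 and 559. By chip, Ptgds stood at 8746.4, 4900.2, 3656.2, 27878.4 and 35513.7 CPM on txE12.5 chips 13 to 17, at 0 on H2B-GFP chip 22 and at 80.1 on chip 21. Each of the 5 txE12.5 chips thus held Ptgds-rich wells, and the 9 members of the H2B-GFP line held 1 molecule in all. In precursor wells Ptgds averaged 789.3 CPM, with its highest value, 4158.4, on chip 15, so on that chip it was no higher in members. Of 7 txP3 members, 1 held 1090 molecules and the others 4 together.

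Wells were then split at 10 molecules of Ptgds, a split made after the data were seen, so its values are description (CPM over all molecules other than Ptgds, pooled over wells). Slc13a4 stood at 842.7 in the 15 Ptgds-rich members and 237.2 in the other 51, and Aebp1, a collagen-binding protein, at 1062.5 and 326.9. The adhesion molecule Alcam stood at 1245.7 and 205.1, but 35 of its 68 molecules in the Ptgds-rich members were in 1 well of chip 14. Slc13a3 stood at 567.9 and 179.5. Lower in the Ptgds-rich members were Cxcl12 (1264.0 and 2365.4), Lum (494.6 and 1192.3) and Col4a1 (1447.2 and 2673.1). Col1a1, a gene of the rule, stood at 3150.8 and 1942.3, but 80 of its 172 molecules in the Ptgds-rich members were in 1 well of chip 14, and 84 of its 303 in the others in 1 well of chip 13. Igf2, Vtn, Apod and Slc6a13 were near equal, at 8793.0 and 8186.0, 6576.4 and 7141.1, 3114.2 and 2859.0, and 2088.3 and 1718.0. Of the 15 Ptgds-rich members 14 were txE12.5 and 0 were H2B-GFP, while the other 51 included all 9 of the H2B-GFP line, where Cxcl12 stood at 3484.2 CPM against 1718.9 in txE12.5 members, so the split was not free of group. Mgp, Nov, Slc47a1 and 1500015O10Rik were kept to few wells (8, 4, 2 and 7), and 3 wells held 96.9% of the 32 Nov molecules.

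Immediate early genes, which are transcribed within minutes of a stimulus and are known to rise while tissue is dissociated, also varied from well to well. The 15 genes summed to 7157.9 CPM (SD 5872.6) in members and 753.8 (SD 260.9) in precursor wells of the same chips. Over single members the median was 11054.9 and 13529.8 CPM on txE12.5 chips 13 and 14, of the same experiment. The 1 member of chip 5, also of that experiment, held 0. On chips 15, 16 and 17, of another experiment, the median was 663.6, 1677.9 and 1682.1. The plot of single wells shows both levels side by side, with Fos found in 12 of the 16 members of chips 13 and 14 and in 13 of the 33 of chips 15 to 17. Summed over the members of a chip, the list stood at 12137.8, 16487.5, 6205.6, 2705.7 and 2373.4 CPM on chips 13 to 17. Klf4, not of the list, followed the same order, at 1428.0, 1813.9, 704.4, 289.9 and 86.8 CPM. Experiment and animal cannot be told apart here.

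**Figure D4:**
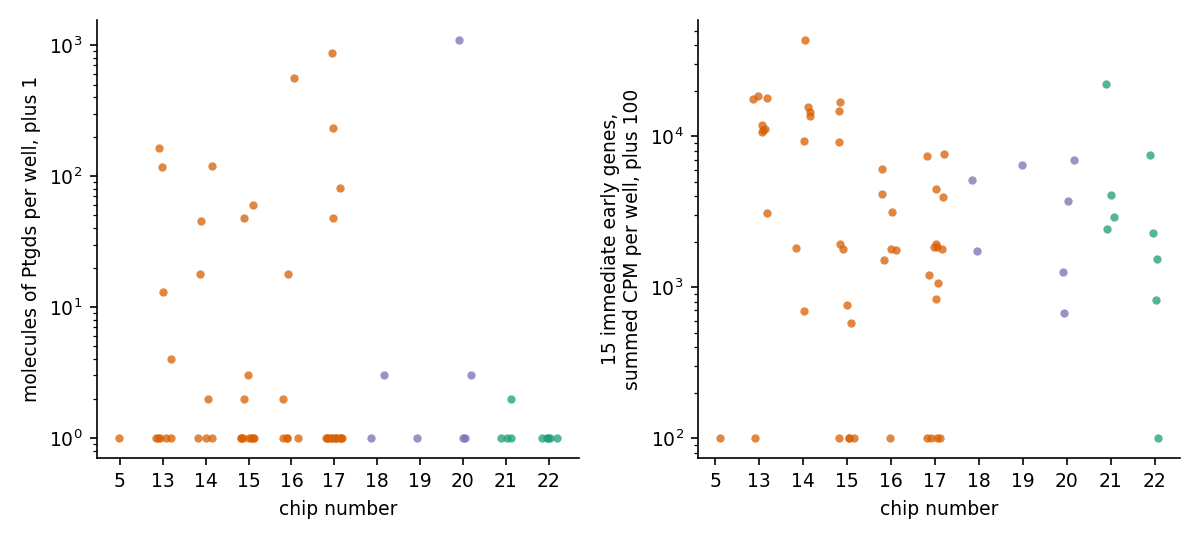
Molecules of Ptgds (left) and summed CPM of 15 immediate early genes (right) in each member, by chip. Orange marks txE12.5, purple txP3 and green H2B-GFP chips.

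Members were compared with E13.5 brain wells chosen by the same rule (97 wells on 6 chips). Only txE12.5 among the P7 groups had 2 or more chips with at least 5 members, so the test set 5 txE12.5 chips (49 members) against 6 E13.5 chips, with molecules summed per chip and a quasi-likelihood test in edgeR. Age, mouse line, strain, tamoxifen, the way of labelling, dissociation method and experiment cannot be told apart in it. The E13.5 wells also carried neuron markers: 50 of 97 held 3 or more molecules of the 7 listed, against 0 of 66 members. Their sum was 1209.3 CPM (SD 582.0) at E13.5, led by Dcx at 486.5 and Tubb3 at 443.0, and 64.6 on the txE12.5 chips, where Tubb3 and Stmn2 were at 0 (3 molecules over the 49 wells would be 19.3 CPM). Of 530 genes tested, 130 passed an adjusted p of 0.05 (edgeR; 24.5% of those tested): 75 higher at P7 (14.2%) and 55 lower (10.4%), with a median log2 fold change of 0.09 over all 530. In 37 of the 75 (6.98% of genes tested) and 34 of the 55 (6.42%) the chips of the 2 ages did not overlap. Among the 37 was the nuclear RNA Malat1, at 80842.2 CPM on the txE12.5 chips and 38997.9 at E13.5 (log2 fold change 1.13, edgeR adjusted p = 0.0042). Pooled over the H2B-GFP members at P7, Malat1 stood at 42117.8 CPM. Its part in the other changes was not tested. With the neuron marker wells left out, an alternative chosen after seeing the data that kept 4 of the 6 E13.5 chips, 43 genes were higher and 14 lower. The balance turned with at least 3 wells per chip, with 87 higher and 175 lower. That setting kept the 6 E13.5 and 5 txE12.5 chips and added 2 H2B-GFP chips, as a P7 group of equal weight to txE12.5. In the H2B-GFP line alone at the same minimum it was 29 and 81. The lower minimum let in chip 21 (4 members) and left the 6 E13.5 chips as they were. The balance also turned with chip 14 left out (55 and 76) and with chips 15 to 17 alone at P7 (44 and 78), whereas chips 13 and 14 alone gave 65 and 34.

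Ptgds led the genes higher at P7. At E13.5 it stood at 0, 2.04 and 973.3 CPM (lowest, median and highest of 6 chips), below every txE12.5 chip given above (log2 fold change 6.01, edgeR adjusted p = 7.6e-05). The call rests on the traced line: in the H2B-GFP line, taken at 3 or more wells per chip, the log2 fold change was −3.35 (edgeR adjusted p = 0.282).

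Apoe, the lipid carrier apolipoprotein E, stood at 833.0, 2220.0, 1308.2, 1546.1 and 1823.4 CPM on chips 13 to 17 and at 0, 69.90 and 274.7 at E13.5 (log2 fold change 3.99, edgeR adjusted p = 1.9e-06). Ptn stood at 9490.1, 8365.6, 7379.6, 7923.9 and 11432.7 CPM against 527.9, 1045.90 and 1831.5 (3.17, edgeR adjusted p = 5.7e-07). Neither gene overlapped between the ages, and both were also high on the 2 H2B-GFP chips, at 4325.2 and 3037.5 CPM for Apoe and 18261.9 and 17629.5 for Ptn. Vtn stood at 4968.2, 6172.7, 4897.4, 6571.0 and 12098.4 CPM against 560.9, 1162.20 and 1507.5 (2.80, edgeR adjusted p = 1.9e-06). The other 6 of the 10 largest rises were Serpine2, an inhibitor of thrombin (3.69), Ifitm3, a membrane protein that blocks viral entry (3.48), Vamp5, a protein of vesicle fusion (3.23), Olfml3, a secreted olfactomedin protein (2.74), Gm13826 (2.71) and Nupr1 (2.70), all with edgeR adjusted p under 0.05. In the H2B-GFP line alone, Nupr1 (1.33, edgeR adjusted p = 0.312) and Serpine2 (2.58, edgeR adjusted p = 0.0561) were not called. Vamp5 was not among the genes tested there. Serpine2 was at least as high in precursor wells (2643.6 CPM) as in members (1114.4), whereas Ifitm3 stood at 4.43 there.

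**Figure D5:**
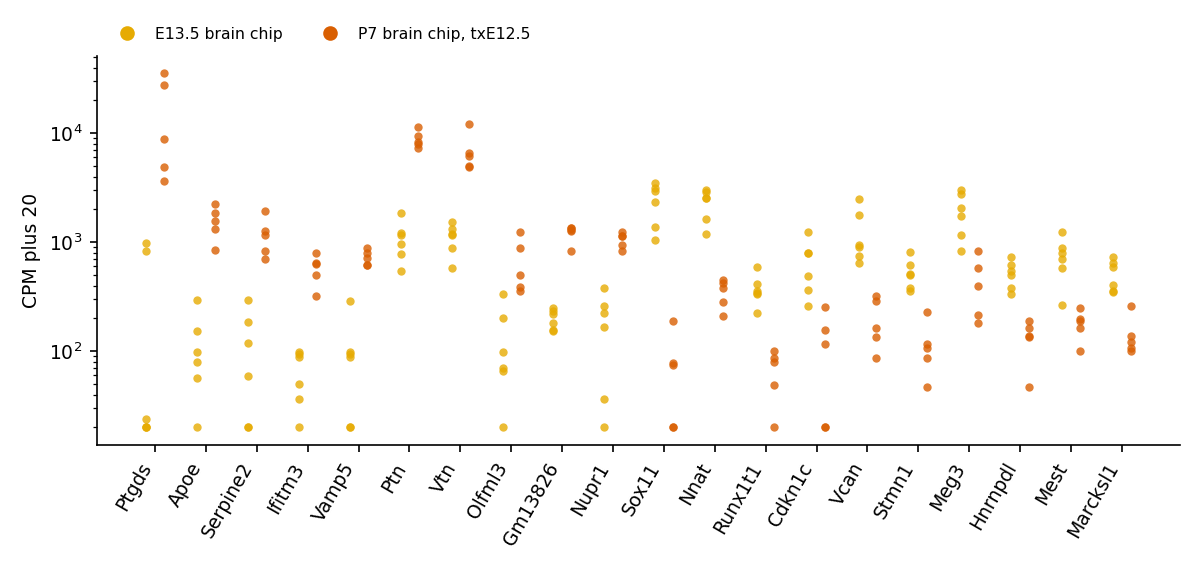
CPM per chip of the 10 genes with the largest rise and the 10 with the largest fall from E13.5 to P7, among called genes whose chips did not overlap between the ages. Each point is 1 chip.

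Sox11, a transcription factor of neural and mesenchymal progenitors, fell most. It stood at 0, 54.1, 167.7, 0 and 57.9 CPM on chips 13 to 17, and at 1019.5, 2612.2 and 3501.1 at E13.5 (log2 fold change −5.26, edgeR adjusted p = 1.47e-06). Both H2B-GFP chips of P7 held 0. Next were Nnat, the proteolipid neuronatin (−2.73), Runx1t1, a transcriptional corepressor (−2.66), Cdkn1c, a cell cycle inhibitor (−2.61), Vcan, the proteoglycan versican (−2.60), and Stmn1, which destabilizes microtubules (−2.42). Meg3, a long noncoding RNA (−2.14), Hnrnpdl, an RNA-binding protein (−2.07), Mest, a hydrolase-like protein (−2.04), and Marcksl1, an actin-binding protein (−2.01), made up the 10. The median E13.5 chip held 2525.0 CPM of Nnat and 1869.7 of Meg3, against 357.0 and 376.3 on the median txE12.5 chip. With the neuron marker wells left out, Sox11, Nnat, Cdkn1c, Vcan, Stmn1 and Meg3 still passed (−4.48, −2.17, −2.57, −2.19, −2.07 and −2.35), and the other 4 were not among the genes tested. In the H2B-GFP line alone 8 of the 10 passed, and Hnrnpdl (−2.02, edgeR adjusted p = 0.0607) and Mest (−2.05, edgeR adjusted p = 0.0698) did not.

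The changes were then counted by list. The lists were chosen with earlier results of these data known, so the counts are description. Of 11 secreted signals tested, 7 rose, where 14.2% of all genes did, and 0 fell (median log2 fold change 1.83 against 0.09 over all genes): Ptgds, Apoe, Ptn, Edn3, Igf2, Igfbp2 and Apod. Edn3, the ligand of endothelin receptors, stood at 624.7, 758.0, 905.7, 724.7 and 1418.2 CPM on chips 13 to 17 and 90.5 to 339.8 at E13.5 (2.50, edgeR adjusted p = 2.6e-05). Igf2 stood at 8032.4, 11506.1, 4729.6, 5797.9 and 8480.5 CPM against 1153.0 to 1971.0 (2.46, edgeR adjusted p = 1.9e-06). In both, every P7 chip lay above every E13.5 chip. Within the H2B-GFP line alone, Apoe, Ptn, Edn3, Igf2 and Apod kept their calls, but Igfbp2 (0.17, edgeR adjusted p = 0.863) and, as above, Ptgds did not. Cxcl12 stood at 1715.5 CPM against 1080.9 (0.77, edgeR adjusted p = 0.0522) and did not pass.

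Of 5 transporters tested, 3 rose, where 14.2% of all genes did, and 0 fell, where 10.4% did (median 1.33). Among them, Slc7a11 averaged 1102.6 and 257.8 (2.13, edgeR adjusted p = 0.0004) and Slc22a6 439.3 and 201.7 (1.33, edgeR adjusted p = 0.0118). The call of Slc22a6 was lost without the neuron marker wells (1.53, edgeR adjusted p = 0.0862) and in the H2B-GFP line alone (1.61, edgeR adjusted p = 0.0825). Slc13a4 stood at 327.2, 81.2, 100.6, 1014.6 and 839.4 CPM on chips 13 to 17 and at 0 in all 97 E13.5 wells, where 3 molecules would be 7.11 CPM pooled and 12.3 to 203.9 CPM on single chips. Its low counts kept it out of the main test, and with no filter on low counts it passed (edgeR adjusted p = 2.3e-14). The fitted log2 fold change of 7.53 there rests on 0 molecules at E13.5, so its size is not measured. That fit also gave smaller errors than the main test: for Ptgds the standard error was 0.34 against 0.95. Aldh1a1, Fmod (fibromodulin) and Prelp, the last 2 small matrix proteoglycans, were also at 0 at E13.5, and at 183.1, 216.4 and 129.8 CPM on the txE12.5 chips. These 4 genes were thus found in members and in none of the E13.5 wells. Of the 3 junction genes tested, Gjb6 rose, at 594.6 CPM against 128.6 (2.46, edgeR adjusted p = 0.0003), Cdh11, a mesenchymal cadherin, fell (−1.83, edgeR adjusted p = 0.0045), and Gja1 stood at 1313.4 against 1424.3 (−0.03, edgeR adjusted p = 0.953).

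Of 8 collagens tested (median log2 fold change 0.21), 0 passed in either direction in edgeR or in DESeq2, where edgeR called 24.5% of all genes. At an unadjusted p under 0.05 there were 0 in edgeR and 1 in DESeq2. Col4a1 averaged 2011.1 CPM on the txE12.5 chips and 2305.2 at E13.5 (−0.04, edgeR adjusted p = 0.952), and Col6a1 774.8 and 549.9 (0.67, edgeR adjusted p = 0.231). The summed level of all 25 collagens was 17025.6 CPM (SD 6872.7) at P7 and 17125.6 (SD 5037.7) at E13.5, a sum that includes the 3 that chose the wells. Of 11 matrix proteins tested, 3 rose, where 14.2% of all genes did, and 2 fell, where 10.4% did (median 0.24). Sparc (1.43, edgeR adjusted p = 0.0043), Sparcl1 (1.82, edgeR adjusted p = 0.0002) and Bgn (1.04, edgeR adjusted p = 0.0361) rose. Fbn2, a fibrillin of embryonic tissue (−1.38, edgeR adjusted p = 0.0199), and Vcan fell. Of 4 genes of collagen processing, Pcolce rose (2.17, edgeR adjusted p = 0.0011), and Serpinh1 stood at 2339.8 and 2778.8 CPM (−0.09, edgeR adjusted p = 0.861). The matrix list thus held calls in both directions, as all genes tested did. Without the neuron marker wells, the calls of Sparc (1.44, edgeR adjusted p = 0.0506), Bgn (1.15, edgeR adjusted p = 0.0989) and Fbn2 (−1.17, edgeR adjusted p = 0.165) were lost, and in the H2B-GFP line alone those of Bgn (0.71, edgeR adjusted p = 0.456) and Fbn2 (−1.30, edgeR adjusted p = 0.157).

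All 3 interferon-induced and antigen presentation genes tested rose (median 1.68), where 14.2% of all genes did. They were Ifitm3, B2m, the light chain of class I molecules (1.68, edgeR adjusted p = 0.0101), and Ifitm2 (1.04, edgeR adjusted p = 0.0246). Only Ifitm3 was called in both of the alternatives named above. In the H2B-GFP line alone, B2m missed the threshold (1.82, edgeR adjusted p = 0.106) and Ifitm2 changed direction (−0.64, edgeR adjusted p = 0.531), and without the neuron marker wells Ifitm2 was not called (1.21, edgeR adjusted p = 0.134). Isg15 was at 0 in members, Ifit1 was in 1 and Ifit3 in 2. Of 7 immediate early genes tested, Ier3 (2.15, edgeR adjusted p = 0.001) and Btg2 (2.09, edgeR adjusted p = 0.0266) rose and 0 fell (median 1.26). Over all genes 14.2% rose and 10.4% fell. Fos did not pass (1.36, edgeR adjusted p = 0.0852). Without the neuron marker wells Btg2 stood at 2.17 and was not called (edgeR adjusted p = 0.0844). The sum of the immediate early list ran from 2373.4 to 16487.5 CPM between the txE12.5 chips and averaged 7982.0 there, against 4149.6 at E13.5. Both tested heat shock genes, Hspa8 and Hsp90aa1, missed the threshold (0.40 and −0.96). S100a6 (1.78, edgeR adjusted p = 0.0156) and Itm2a (1.75, edgeR adjusted p = 0.0042) rose as well, though Itm2a was not called without the neuron marker wells (1.48, edgeR adjusted p = 0.0654) or in the H2B-GFP line alone (0.91, edgeR adjusted p = 0.306). Of 5 meningeal transcription factors tested, 1 fell, where 10.4% of all genes did, and 0 rose (median −0.46). Zic1 fell (−1.03, edgeR adjusted p = 0.0205), and Tbx18 stood at 777.4 and 531.8 CPM (0.69, edgeR adjusted p = 0.119). Zic1 too was not called without the neuron marker wells (−0.88, edgeR adjusted p = 0.208) or in the H2B-GFP line alone (−1.56, edgeR adjusted p = 0.0666). The only receptor tested, Pdgfra, stood at 644.4 CPM against 347.4 (1.11, edgeR adjusted p = 0.073). For this gene the groups also differed at the locus, since the E13.5 line carried H2B-GFP in 1 copy of it. The part of that difference was not tested. No cell cycle gene had enough molecules for the test: the 17 listed summed to 536.8 CPM (SD 457.8) on the txE12.5 chips and 1204.9 (SD 611.3) at E13.5.

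Within P7, txE12.5 members of the traced line were set against the H2B-GFP line on chips with at least 3 members (5 txE12.5 and 2 H2B-GFP chips), since only 1 H2B-GFP chip held 5. The txP3 group had 1 such chip, with 4 members, and was left out because a group needed 2. Of 1183 genes, 1 passed (edgeR; 0.0845%): Ptgds, with a log2 fold change of 9.20 (edgeR adjusted p = 0.0144) and 1 molecule in the 9 H2B-GFP members. At an unadjusted p under 0.05 there were 173 genes, and DESeq2 called 1 other gene, while Ptgds missed the threshold there (8.92, DESeq2 adjusted p = 0.132). When either H2B-GFP chip was left out, only 1 chip stood for that line, the other groups alone gave the spread, and 0 passed; the log2 fold change of Ptgds was 12.49 and 8.32. The lowest p after Ptgds among genes higher in the traced line were those of Hsp90aa1, a chaperone, and Rgs16, a regulator of G proteins, and among genes lower in it Txnip, a thioredoxin inhibitor, Meis2, a homeobox factor, and Gnb2l1, a ribosomal scaffold; none of the 5 passed. Line, strain, tamoxifen, the way and time of labelling, experiment and a possible day of age cannot be told apart.

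Members of the txP3 group numbered 7, and none of its 3 chips held the 5 members set as the minimum for a test of genes, so pooled levels are given. Igf2 stood at 9212.5 CPM in txP3 members (118 of 250 molecules in 1 well) and 7953.9 in txE12.5 members, Vtn at 6669.9 and 6989.8, and Tbx18 at 1326.6 and 843.6. Other genes lay further apart: Tmsb10 at 6338.2 and 3298.3, Edn3 at 1916.2 and 888.0, and Vamp5 at 184.3 and 697.7. Klf4 stood at 36.9 CPM (1 molecule) and 919.7 (145 molecules), with 48 and 67 of the 145 on chips 13 and 14. Pdgfra stood at 737.0 CPM (20 molecules) and 608.9 (96 molecules). Sox11 was at 36.9 CPM (1 molecule) and 63.4. Slc13a4, found as 4 molecules in txP3 members, stood at 147.4 against 425.0 CPM. Fos stood at 552.8 CPM (15 molecules) against 1668.2 (263 molecules), with 111 and 102 of the 263 on chips 13 and 14. On chips 16 and 17 Klf4 had 6 and 3 molecules and Fos 10 and 16.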

How the data were processed

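Counts of molecules per gene symbol and well were taken as deposited by the authors, without filtering, and were summed over wells per chip. The chip was the replicate, though chips were nested in few experiments. Members and gene lists were chosen with earlier results of these data known. Mitochondrial, spike-in and transgene counts were left out of totals. Shares were compared by exact permutation of chips, adjusted over 3 comparisons (Benjamini-Hochberg). Genes were tested in edgeR 4.0.16 (R 4.3.3; TMM, filterByExpr, quasi-likelihood, adjusted p under 0.05), and in DESeq2 1.42.0 as an alternative, after both were tested on simulated data; the 12 genes of the rule stayed in library sizes and out of the tests. Chips of the main fit between ages held 20697 to 36937 molecules at P7 and 14713 to 244575 at E13.5. A count of 20 molecules has a 95% interval of 12.2 to 30.9. Named genes were those of the lists, the 10 largest called changes in each direction with chips that did not overlap, the 15 highest levels and the 15 highest ratios to precursor wells (at least 200 CPM, 20 added). Promoters came from RefSeq on GRCm38.p6. Of the 26 chips, 1 (chip 9) could not be assigned to a group from its labels and was kept out of every comparison. Its experiment number was that of the E13.5 spinal cord chips 4, 7 and 8. Some genes the rule names are not reported here.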

Additional observations from a re-analysis of the deposited data

Results flagged for a closer look

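Some values stood far from the others of their group or lay outside the comparisons above. Among 72 groups of 4 to 10 chips examined, 6 values stood far from the rest; chance alone gives about 1 in 20. They were the share of wells that passed the rule on P7 spinal cord chip 23 (92.9%), the share of wells with both gene sets on E13.5 brain chip 24 (7.89%), Gm13826 on txE12.5 chip 15 (805.0 CPM, the lowest of 5), Marcksl1 on txE12.5 chip 16 (241.6 CPM), Vtn on txE12.5 chip 17 (12098.4 CPM) and Vamp5 on E13.5 brain chip 2 (271.6 CPM). Their causes were not tested.

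On the P7 brain chips, wells with both gene sets were found in the traced line only: 58 of 601 wells (9.65%) against 0 of 108 in the H2B-GFP line, where 3 wells would be 2.78%. By group they were 53 in txE12.5 and 5 in txP3. Elsewhere the H2B-GFP line did hold such wells: 1 each on E13.5 brain chips 2, 3 and 6, 3 on chip 24, and 2 and 1 on E13.5 spinal cord chips 7 and 8. The chip in no group held 2. On the chip in no group, 53 of 78 wells passed the rule (67.9%). The Cre transgene gave 3 molecules in members of the traced chips, 29 in precursor wells there and 0 in the H2B-GFP line. GFP molecules numbered 49 in 57 traced members (0.86 per well) and 160 in precursor wells of the same chips (0.352 per well), with 25 of the 49 on chips 13 and 14. In the H2B-GFP line they numbered 1 in 9 members and 20 in precursor wells (0.213 per well).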

How the results depend on the processing

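The difference in share between txE12.5 and txP3 kept its sign under all alternatives, and passed only with no limit on the precursor gene sum (19.5 points). It fell to 4.29 points with a precursor gene sum of 0 and 5.21 with the txE12.5 chips of 1 experiment alone (13 with the other). In thinned wells it rose to 14.6 (exact permutation adjusted p = 0.143). There the rule was applied again to the thinned counts, so wells with both gene sets could fall under the precursor limit and be counted. The mean share was 19.1% on the txE12.5 chips in that setting and 8.49% on the H2B-GFP chips. The difference between the traced and H2B-GFP lines changed sign with a minimum of 2000 molecules (−4.29) and a precursor gene sum of 0 (−2.44), grew to 10.5 points with no limit on the precursor gene sum and 5.72 in thinned wells, and ran from −0.98 to 2.72 points when 1 chip was left out. Brain against spinal cord ran from −16 to 7.21 points when 1 chip was left out. None of these passed, and the causes were not tested.

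The 130 genes called between P7 and E13.5 became 281 with no filter (more genes tested) and 262 with at least 3 wells per chip (2 H2B-GFP chips added). They became 80 with at least 10 (fewer chips), 66 with a precursor gene sum of 0 (fewer chips) and 27 in wells thinned to 1000 molecules (97 genes tested). Higher calls made up 57.7% of the 130 and 33.2%, 37.5% and 30.3% with at least 3 wells, at least 10 and a precursor sum of 0. Among alternatives chosen after seeing the data, leaving out wells with neuron markers gave 57; the E13.5 experiments alone gave 98 and 172, the P7 experiments 99 and 122, and the H2B-GFP line alone at 3 or more wells 110 (29 higher, 81 lower). DESeq2 called 149 genes, 125 of the 130 among them. Of the 130, 84 were called with no filter, 50 with at least 10 wells, 50 with a precursor sum of 0, 52 without neuron marker wells and 48 in the H2B-GFP line alone. Of 42 named genes, 40 kept their call in DESeq2 and 40 with library size alone, but 30 with at least 10 wells, 28 without neuron marker wells, 26 with a precursor sum of 0, 24 in the H2B-GFP line alone and 15 in thinned wells, where 25 were not tested. Only in the H2B-GFP line alone did any change sign: Ptgds (−3.35) and Ifitm2 (−0.64).

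The 1 gene called between the lines at P7 became 2 with library size alone, 4 with no filter, 2 with neuron marker wells left out (chosen after seeing the data), and 0 to 8 when 1 chip was left out (0 where a single H2B-GFP chip remained). With 5 wells per chip, the H2B-GFP line could not be fitted at P7 (1 chip), nor could txP3 at any minimum used (3, 5 or 10 wells), nor the lines at 10 wells or at a precursor gene sum of 0; those alternatives were not run. No paired analysis was possible because the groups share no replicate numbers. Depth limits low genes: in the main fit between ages, 3 molecules are 144.9 CPM on the smallest P7 chip and 203.9 on the smallest E13.5 chip. The fit between the lines also used chip 21, with 12485 molecules in its members.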
